A study of Mus musculus with 8 samples.

Results

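The genes described here are 38 genes of sterol and fatty acid synthesis, taken by symbol from a list that holds the enzymes from acetyl-CoA to cholesterol, the sterol sensor and its transcription factors, the enzymes that build, lengthen and desaturate fatty acids, and 2 sterol exporters. They were chosen by function. All 38 were found among the 54532 genes of the expression table, and 37 were among the 25402 genes with a mean value high enough to be tested. Elovl3, an elongase, was near the floor of the scale in all 8 corneas, with a mean of -2.095 in each strain, and was not tested. RNA of 8 corneas was sequenced, 4 from the strain BALB/cN and 4 from C57BL/6N (replicates 1 to 4 of each). All mice were male, both strains are inbred, and the corneas were naive, that is, neither strain had been treated, operated on or engineered. The corneas served to compare gene expression between the parent strains of an intercross in which a locus on chromosome 17 was mapped for lymphatic vessel growth. Neither the labels nor the methods say whether each cornea came from a separate mouse, so the p-values measure the spread between these samples, which may be partly technical.

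The values are regularized log values (rlog) on a log2 scale, already normalized for library size. Read counts were not used here and the depth behind each value is unknown. The rlog transformation pulls values towards the mean of each gene, most of all for weakly expressed genes. Differences and ratios given here can therefore be understated. All differences are BALB/cN minus C57BL/6N, errors are standard errors of the difference (SE) or standard deviations over 4 corneas (SD), and a gene was called where limma gave an adjusted p-value of 0.01 or less over all 25402 genes. The tissue labels fit the keratin of corneal epithelium, Krt12, which stood at 19.71 in both strain means.

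Cells make cholesterol from acetyl-CoA through mevalonate, squalene and lanosterol, and fatty acids from the same precursor through malonyl-CoA. Both routes are switched on by the sterol regulatory element binding proteins (SREBPs), which are held in the endoplasmic reticulum with Scap and the Insig proteins while sterols are plentiful, and which enter the nucleus after cleavage when sterols run low. The corneal epithelium renews itself throughout life and needs new membrane lipid to do so.

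Promoter sequence was read from RefSeq windows of 250 bases before to 50 bases after each start site (build GRCm38.p6), which were present for 29 of the 38 genes. Windows of Sqle, Scd2, Fdps, Scd1, Acat1, Fads1, Abcg1, Elovl3 and Fdft1 were not used here. Hmgcs1, the enzyme that makes HMG-CoA, is shown because it was the only one of the 29 genes with the core of a sterol regulatory element, searched as TCACNCCAC on both strands. Lss, which closes the first ring structure of the sterols, is shown beside it as another gene called lower in BALB/cN and was chosen after its values were seen. The sequences are the 250 bases before the start site, 5′ to 3′, at chr13:119690101-119690350 on the plus strand for Hmgcs1 and at chr10:76531355-76531604 on the plus strand for Lss, and capitals mark the sterol regulatory element core and each CCAAT box (written ATTGG where it lies on the other strand).
Hmgcs1: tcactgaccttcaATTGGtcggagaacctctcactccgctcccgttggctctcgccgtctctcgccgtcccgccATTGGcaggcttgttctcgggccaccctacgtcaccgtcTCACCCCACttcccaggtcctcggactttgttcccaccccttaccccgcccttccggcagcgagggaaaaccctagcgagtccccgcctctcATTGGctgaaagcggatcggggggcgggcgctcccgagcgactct
Lss: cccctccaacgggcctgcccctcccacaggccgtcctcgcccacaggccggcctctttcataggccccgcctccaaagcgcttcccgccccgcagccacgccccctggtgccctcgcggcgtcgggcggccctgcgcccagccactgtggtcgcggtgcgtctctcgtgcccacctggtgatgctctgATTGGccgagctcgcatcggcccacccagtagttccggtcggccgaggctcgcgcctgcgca

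In Hmgcs1 the sterol regulatory element core began at -137 from the start site, between CCAAT boxes at -176 and -45. This core was found in 1.44% of the 27025 genes with a window. These genes were not selected by gene type or by expression in the cornea. A gene with several windows was counted if any of them held the motif. No share over expressed protein-coding genes was computed. A CCAAT box, the site of the factor NF-Y, was found in 23 of the 29 genes (79.3%) against 41.1% of all genes with a window, and GGGCGG, the site of Sp1, in 24 of the 29 (82.8%) against 38.2%. All 3 motifs were searched on either strand, and in these genes 1 pair of different motifs overlapped, a CCAAT box and GGGCGG in Elovl1. Of the 8 genes with a window that were called lower in BALB/cN, 5 held a CCAAT box and 6 held GGGCGG, and of the 21 others 18 held each. A match of letters is a description of the window and not of a bound site. Only 1 spelling of each motif was searched, and only inside the window. A gene without a match can therefore still hold a site with other letters or further away.

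Of the 19 enzymes listed for cholesterol synthesis, 9 were called lower in BALB/cN corneas, at 0.617 to 0.792 times the C57BL/6N level. The 19 count the mitochondrial thiolase Acat1, and the differences of 17 of them lay below 0. Of the 37 genes tested, 11 were called lower in BALB/cN and 0 were called higher, against 2.91% of all genes called lower and 2.83% called higher (5.74% in either direction). Of the 16006 protein-coding genes tested, 7.16% were called, 3.59% lower and 3.57% higher. The 11 were Acat2, Hmgcs1, Fdps, Fdft1, Sqle, Lss, Cyp51, Msmo1 and Hsd17b7 of the cholesterol route and Acaca and Elovl6 of the fatty acid route. At an unadjusted p under 0.05 in the same limma fit, 26 of the 37 passed. So did 6009 of all 25402 genes tested and 4442 of the 16006 protein-coding genes. The median difference over the 37 genes was -0.28, against 0.01 over all genes tested and 0.02 over protein-coding genes, and 30 of the 37 (81.1%) lay below 0, against 47.2% of all genes. In 21 of the 37 genes every BALB/cN cornea lay below every C57BL/6N cornea, where 9.58% of all genes and 10.7% of protein-coding genes did so. In 3 genes every BALB/cN cornea lay above, where 8.75% of all genes and 10.4% of protein-coding genes did (in either direction, 18.3% and 21.1%). For every gene separated in this way the exact two-sided permutation test over the 8 corneas gave p = 0.0286, the smallest that 4 against 4 corneas allow.

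The count changed when a cornea was left out and with how the p-values were calibrated. It was 6 without BALB/cN replicate 2 or C57BL/6N replicate 4, and 7 without BALB/cN replicate 1 or 4 or C57BL/6N replicate 2 or 3. It was 8 without C57BL/6N replicate 1, and 12 without BALB/cN replicate 3, when 9 of the 11 were kept and Acacb was called higher. The share of all genes called also fell in each of these fits, to between 3.75% and 4.58%, from 5.74% with all corneas. Acat2, Hmgcs1, Cyp51, Msmo1, Sqle and Elovl6 were called in each of these 8 fits. When the limma p-values were recalibrated to an empirical null over all genes, 0 of the 37 genes were called and 0 of all 25402. The smallest adjusted p of the 37 genes was then 0.483. At that setting 12 of the 37 had an unadjusted p under 0.05, and the count over all genes was not taken. With each cornea centred on its median, 10 were called and 7 of the 11 kept, against 3.77% of all genes called. Lss, Sqle, Fdft1 and Acaca were lost (limma adjusted p = 0.0109, 0.0121, 0.0264 and 0.036). Centring moved every difference by the same amount, for Acaca from -0.37 to -0.45, so the genes lost did not have smaller differences.

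**Figure D1:**
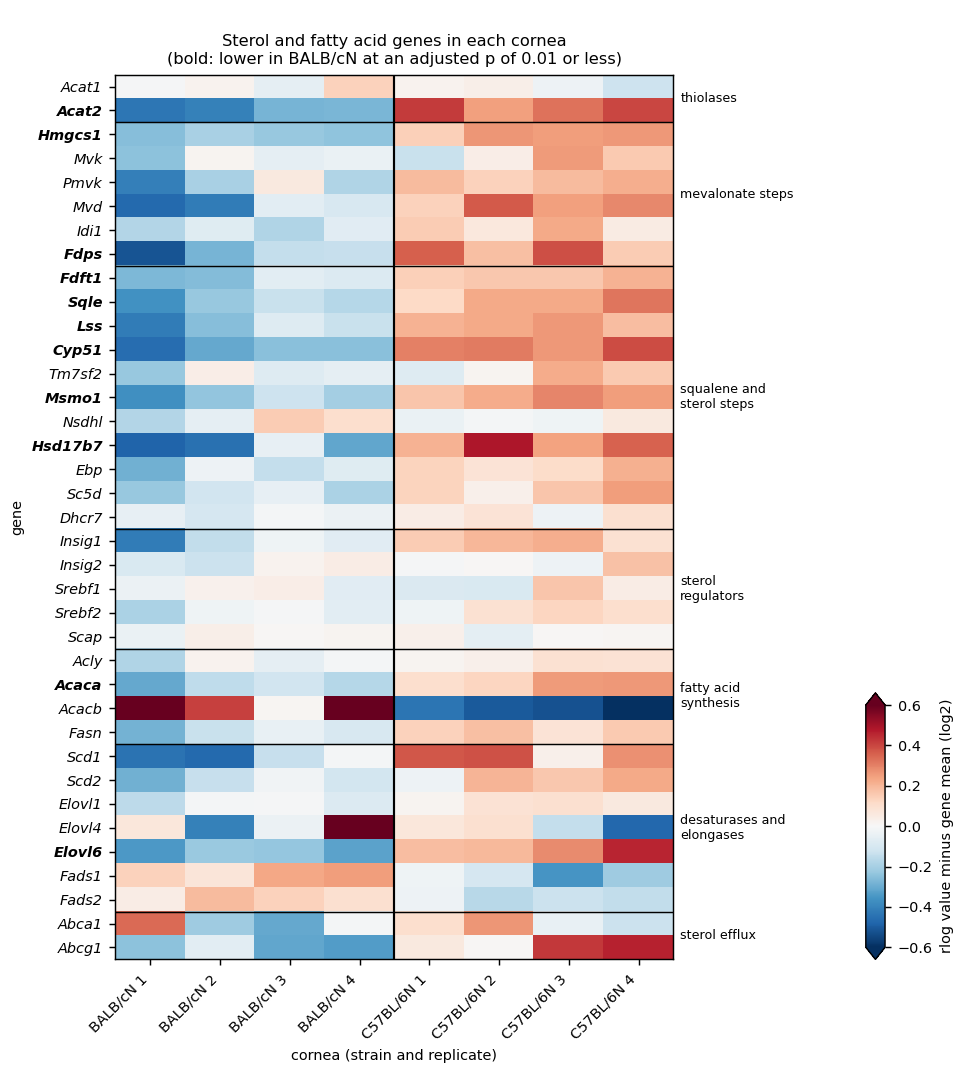
Heat map of the 37 genes tested (rows, grouped by role) in the 8 corneas (columns, BALB/cN left of the vertical line and C57BL/6N right of it), with colour for the rlog value minus the mean of the gene over all corneas on a log2 scale that ends at ±0.6. Rows of the 11 genes called lower in BALB/cN, in bold, are blue in all 4 BALB/cN corneas and red in all 4 C57BL/6N corneas, BALB/cN replicate 1 has the lowest value of its strain in each of the 11, and Acacb, Fads1 and Fads2 show the opposite order.

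Acat2 lies in the chromosome 17 locus, and so does the sterol exporter Abcg1. Without Acat2, 10 of 36 genes were called (27.8%), all lower, with a median difference of -0.27. Outside the locus the count was 10 of 35 genes (28.6%) with a median of -0.27. By role, 9 of the 19 enzymes of cholesterol synthesis were called lower, with a median of -0.37 and all BALB/cN corneas below all C57BL/6N corneas in 14 of the 19, and 2 of the 11 tested enzymes of fatty acid synthesis, lengthening and desaturation, with a median of -0.13, all BALB/cN corneas below in 5 of the 11 and above in 3 (Acacb, Fads1 and Fads2). None of the 5 sterol regulators was called by limma, with a median of -0.07. An unadjusted p under 0.05 was reached by 2 of the 5, and by 6009 of all 25402 genes tested. These medians describe the lists, and no test was made between them.

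The first step joins acetyl-CoA units. Acat2, the cytosolic thiolase (chr17:12942890-12960747, minus strand), had rlog values of 8.48, 8.51, 8.64 and 8.64 in BALB/cN replicates 1 to 4 and of 9.33, 9.16, 9.24 and 9.31 in C57BL/6N replicates 1 to 4. The strains were far apart compared with the spread inside each, and the difference was -0.70 ± 0.07 (SE), or 0.617 times the C57BL/6N level (limma adjusted p = 0.000186). Acat1, the mitochondrial thiolase, overlapped between the strains, with means of 9.88 ± 0.08 and 9.83 ± 0.07 (SD, n = 4 each).

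Hmgcs1 (chr13:119690379-119708260, plus strand) condenses acetyl-CoA with acetoacetyl-CoA to HMG-CoA and was the gene with the smallest spread among those called. Its rlog values were 13.24, 13.30, 13.27 and 13.25 in BALB/cN and 13.64, 13.76, 13.74 and 13.75 in C57BL/6N. All BALB/cN corneas lay close together (SD 0.03) and below all C57BL/6N corneas, at a difference of -0.46 ± 0.04 (SE) or 0.727 times the C57BL/6N level (limma adjusted p = 0.000133).

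Fdps, which makes farnesyl diphosphate, read 8.68, 8.92, 9.05 and 9.06 in BALB/cN and 9.55, 9.38, 9.58 and 9.35 in C57BL/6N. The strains did not overlap, and the difference was -0.54 ± 0.10 (SE, limma adjusted p = 0.00719). This call was lost whichever cornea was left out, with limma adjusted p between 0.0119 and 0.0234. Mvd, which decarboxylates mevalonate diphosphate, read 9.75, 9.79, 10.15 and 10.12 in BALB/cN and 10.35, 10.58, 10.46 and 10.50 in C57BL/6N. BALB/cN replicates 1 and 2 were its lowest corneas, the strains were separated, and at -0.52 its limma adjusted p of 0.01002 stood just past the threshold. The kinases Mvk and Pmvk and the isomerase Idi1 were not called, with differences of -0.16, -0.37 and -0.25, and of these Pmvk and Idi1 were separated between strains.

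Fdft1 makes squalene from farnesyl diphosphate and opens the branch that leads to sterols alone. Its rlog values were 11.43, 11.44, 11.64 and 11.62 in BALB/cN and 11.84, 11.86, 11.86 and 11.91 in C57BL/6N. The C57BL/6N corneas were closely grouped (SD 0.03) and all above BALB/cN, at a difference of -0.34 ± 0.06 (SE, limma adjusted p = 0.00646). The call held in 1 of the 8 fits that left out a cornea, the one without BALB/cN replicate 3.

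Sqle, the epoxidase that adds oxygen to squalene, read 12.33, 12.46, 12.56 and 12.52 in BALB/cN and 12.81, 12.92, 12.92 and 13.01 in C57BL/6N. It was lower in every BALB/cN cornea, at a difference of -0.45 ± 0.06 (SE, limma adjusted p = 0.00173) or a ratio of 0.733. Lss, the cyclase that yields lanosterol, read 11.895, 12.06, 12.24 and 12.18 in BALB/cN and 12.52, 12.54, 12.57 and 12.50 in C57BL/6N. BALB/cN replicate 1 was its lowest cornea, and the difference was -0.44 ± 0.07 (SE, limma adjusted p = 0.00382). The call was lost in 5 of the 8 fits that left out a cornea and held without BALB/cN replicate 1, 3 or 4.

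Cyp51, the demethylase of lanosterol (chr5:4081145-4104746, minus strand), had the smallest limma adjusted p of the 37 genes. It stood at 11.54, 11.69, 11.75 and 11.75 in BALB/cN and at 12.30, 12.31, 12.26 and 12.39 in C57BL/6N. The highest BALB/cN cornea was far below the lowest C57BL/6N cornea, and the difference was -0.63 ± 0.06 (SE, adjusted p = 0.000114, limma), or 0.644 times the C57BL/6N level.

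Msmo1 removes methyl groups from the sterol ring as an oxidase and read 11.54, 11.67, 11.78 and 11.70 in BALB/cN and 12.07, 12.13, 12.20 and 12.16 in C57BL/6N. It was lower in all 4 BALB/cN corneas, at a difference of -0.47 ± 0.06 (SE, limma adjusted p = 0.000941). Hsd17b7, a sterol ketoreductase of the same demethylation, read 9.14, 9.17, 9.56 and 9.30 in BALB/cN and 9.82, 10.10, 9.86 and 9.97 in C57BL/6N. BALB/cN replicate 3 came closest to C57BL/6N without reaching it, and the difference was -0.65 ± 0.10 (SE, limma adjusted p = 0.00346), a call that held without BALB/cN replicate 3 or C57BL/6N replicate 1 or 3 and was lost without any of the other 5. Nsdhl, the dehydrogenase that acts in between, had means of 11.74 ± 0.15 and 11.73 ± 0.04 (SD, n = 4 each) and overlapping corneas.

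None of the other 4 sterol enzymes was called. Ebp, an isomerase, and Sc5d, a desaturase of the sterol ring, were separated between strains at -0.27 and -0.29 but were not called, with limma adjusted p of 0.0388 and 0.0133. Dhcr7, which reduces the last double bond in one branch, and the reductase Tm7sf2 overlapped, with differences of -0.10 and -0.16.

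**Figure D2:**
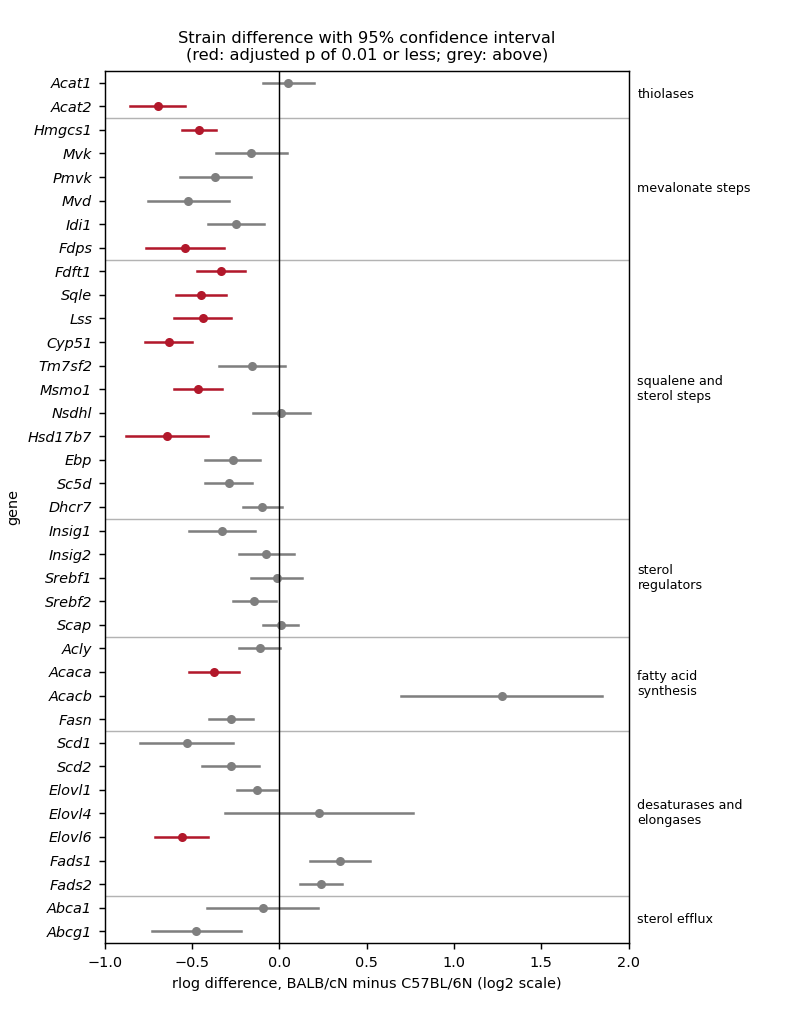
Difference in rlog value (BALB/cN minus C57BL/6N, log2 scale, horizontal axis) of the 37 genes tested, with 95% confidence intervals from limma, 4 corneas per strain. The 11 genes called at an adjusted p of 0.01 or less (red) run from -0.70 for Acat2 to -0.34 for Fdft1, and the intervals of Srebf1 and Scap include 0.

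Transcript levels of the sterol regulators were compared next. Srebf2, which encodes the SREBP that acts mostly on cholesterol genes, read 14.16, 14.32, 14.34 and 14.28 in BALB/cN and 14.32, 14.44, 14.47 and 14.44 in C57BL/6N. The corneas of the strains overlapped, and the difference was -0.14 with a 95% interval of -0.27 to -0.02 (limma adjusted p = 0.139).

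Srebf1, which encodes the forms that act mostly on fatty acid genes, read 12.56, 12.62, 12.63 and 12.52 in BALB/cN and 12.50, 12.50, 12.76 and 12.63 in C57BL/6N. C57BL/6N replicate 3 was its highest cornea and C57BL/6N replicates 1 and 2 its lowest, and the difference was -0.02 with an interval of -0.16 to 0.13. Scap, the escort of both, read 11.69, 11.76, 11.73 and 11.75 in BALB/cN and 11.76, 11.67, 11.73 and 11.74 in C57BL/6N. Its values were interleaved, at a difference of 0.01 with an interval of -0.09 to 0.11. The signs of the differences of Srebf1 and Scap changed with the scaling and with the corneas left out.

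Insig1, which holds Scap back when sterols are plentiful and is itself an SREBP target, read 11.78, 12.05, 12.17 and 12.13 in BALB/cN and 12.35, 12.40, 12.41 and 12.29 in C57BL/6N. It was the one regulator separated between strains, at -0.33 ± 0.08 (SE), and it was not called (limma adjusted p = 0.0332). Its relative Insig2 read 9.82, 9.78, 9.94 and 9.96 in BALB/cN and 9.91, 9.92, 9.88 and 10.09 in C57BL/6N. The strains overlapped, at -0.07 (limma adjusted p = 0.563).

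Fatty acid synthesis starts with the carboxylation of acetyl-CoA. Acaca, the cytosolic acetyl-CoA carboxylase, read 10.65, 10.80, 10.84 and 10.78 in BALB/cN and 11.06, 11.08, 11.21 and 11.22 in C57BL/6N. It was lower in all 4 BALB/cN corneas, at a difference of -0.37 ± 0.06 (SE, limma adjusted p = 0.00473), and the call held only without C57BL/6N replicate 1 or 2 among the 8 fits that left out a cornea.

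Acacb, the carboxylase tied to mitochondria and to the control of fatty acid oxidation, had the largest difference of the 37 genes and went the other way. It read 8.31, 7.89, 7.49 and 8.76 in BALB/cN and 7.03, 6.97, 6.95 and 6.39 in C57BL/6N. All BALB/cN corneas were above all C57BL/6N corneas, but they were widely spread (SD 0.55), and at 1.27 ± 0.26 (SE) the limma adjusted p was 0.0112. Its highest corneas, BALB/cN replicates 4 and 1, were also those with lens and pigment cell transcripts, and without both the difference was 0.85 (limma adjusted p = 0.0853). Fasn, the fatty acid synthase, and Acly, which supplies acetyl-CoA from citrate, were not called, at -0.28 and -0.11, and of the pair Fasn was separated between strains (limma adjusted p = 0.0113).

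Elovl6, which lengthens saturated and monounsaturated chains, read 12.60, 12.72, 12.71 and 12.62 in BALB/cN and 13.12, 13.13, 13.22 and 13.40 in C57BL/6N. It was the only one of the 7 tested desaturases and elongases to be called, at -0.56 ± 0.07 (SE) or 0.678 times the C57BL/6N level (limma adjusted p = 0.000618), and the strains were well apart. Scd1, a delta-9 desaturase, read 11.27, 11.25, 11.58 and 11.71 in BALB/cN and 12.09, 12.10, 11.75 and 11.99 in C57BL/6N. BALB/cN replicate 4 almost met C57BL/6N replicate 3, and at -0.53 ± 0.12 (SE) it was not called (limma adjusted p = 0.0184). Scd2, the other main delta-9 desaturase, overlapped at -0.28.

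Fads1 and Fads2, the desaturases of polyunsaturated fatty acids, lie next to each other on chromosome 19 and were the other genes with every BALB/cN cornea above every C57BL/6N cornea. Fads1 averaged 12.69 ± 0.08 in BALB/cN and 12.35 ± 0.14 in C57BL/6N (SD, n = 4 each), a difference of 0.35 with a limma adjusted p of 0.0172. Fads2 averaged 11.93 ± 0.06 and 11.69 ± 0.06 (SD, n = 4 each), a difference of 0.24 with a limma adjusted p of 0.0183. Neither was called. The elongases Elovl1 and Elovl4 had differences of -0.13 and 0.22, and Elovl4 changed sign without BALB/cN replicate 4, to -0.01.

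Of the sterol exporters, Abcg1 (chr17:31057675-31117988, plus strand) read 11.66, 11.85, 11.60 and 11.58 in BALB/cN and 11.97, 11.92, 12.34 and 12.37 in C57BL/6N. C57BL/6N replicates 3 and 4, the corneas with few stromal transcripts, were its highest, and at -0.48 ± 0.11 (SE) it was separated but not called (limma adjusted p = 0.0256). Abca1 overlapped between strains, at -0.10.

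Levels were compared between genes as 2 to the power of the rlog value, averaged over the corneas, per kilobase of merged exons. On this scale the highest of the 37 genes was Scd2 at 12870, followed by Srebf2 at 2905, Hmgcs1 at 2544 and Acly at 2311, with Sc5d (1645) and Fasn (1638) next and almost equal. The lowest were Elovl4 at 11.2, Acacb at 21.2 and Idi1 at 82.2. The genes called lower in BALB/cN ranged through most of the order, from Hmgcs1 down to Acaca at 117.3.

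Some of these genes share sequence with others, so that reads could have been counted for either. A search of annotated transcripts for at least 95% identity over at least 200 bases found such a match for 9 of the 38 genes. Acaca matched the processed pseudogene Gm5182 over 6118 bases at 99.2% identity, and Gm5182 had a rlog mean of 10.71 and was itself called lower (-0.45, limma adjusted p = 0.000853). Fdft1 matched the pseudogene Gm6781 over 1249 bases at 97.4% identity, and Gm6781 was called lower as well (-0.35, limma adjusted p = 0.00753). These pairs are uncertain as to which locus gave the reads.

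Acat2 matched its neighbour in family and chromosome, Acat3, over 1477 bases at 97.7% identity, but Acat3 had a mean of 2.89 against 8.91 for Acat2 and a difference of -0.04. Acat2 also shared 445 bases with Tcp1, at a Tcp1 difference of 0.09. Idi1 matched the pseudogene Gm13502 over 684 bases at 100% identity, and Gm13502 had a higher rlog mean than Idi1 (8.38 against 8.16) and a difference of -0.38. Elovl6 matched Gm11295, a pseudogene with a mean of 2.73. Scd2 matched Scd1 over 623 bases at 95.5%. Msmo1 matched 10 genes over short stretches of 200 to 203 bases, of which Taf1d was called lower (-0.35, limma adjusted p = 0.00354). Fdft1 also overlaps Ctsb on its own locus, with 774 shared bases and a Ctsb difference of 0.02 at a rlog mean of 13.40. Hmgcs1, Idi1 and Scap each overlap a transcript on their own locus, Gm48342, Gm48574 and 5830462I19Rik.

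Further genes of the same metabolism were counted from lists drawn up with earlier results of these data known. Of 45 tested genes in all, 5 were called (11.1%, against 5.74% of all genes and 7.16% of protein-coding genes), 3 lower and 2 higher, with a median difference of -0.01. Among 17 further sterol genes, Aacs, which activates acetoacetate for lipid synthesis, was lower at 11.42 ± 0.15 against 12.01 ± 0.05 (SD, n = 4 each), a difference of -0.59. Scarb1, a receptor for high density lipoprotein, was higher by 0.50, and Vldlr, a receptor for triglyceride-rich lipoprotein, was higher by 0.91 (limma adjusted p = 0.000738 and 0.00143).

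Among 21 further fatty acid genes, Oxsm, the ketoacyl synthase of mitochondria, was lower (-0.48, limma adjusted p = 0.0017). Of 7 genes linked to the liver X receptors, Mylip, a ubiquitin ligase for lipoprotein receptors, was lower (-0.80, limma adjusted p = 0.000108), and the receptors themselves, Nr1h2 and Nr1h3, were not called at 0.08 and 0.35. The proteases that cleave the SREBPs, Mbtps1 and Mbtps2, were not called either, at -0.13 and 0.10.

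**Figure D3:**
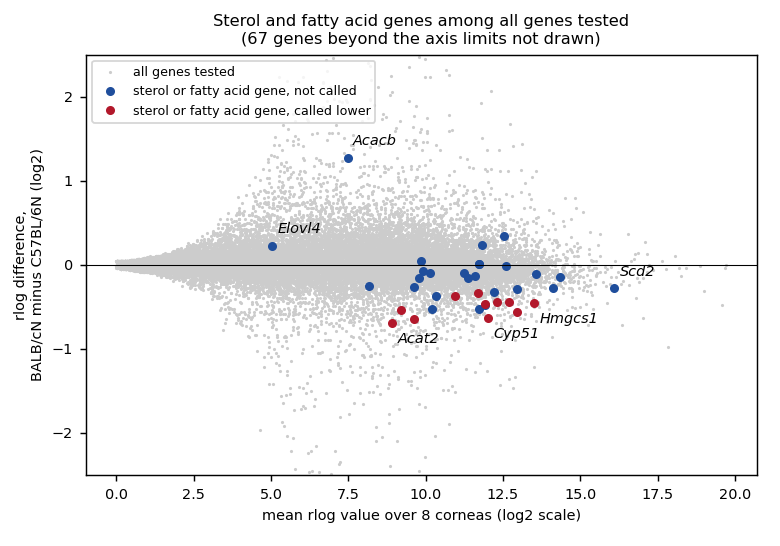
Difference in rlog value (BALB/cN minus C57BL/6N, log2, vertical axis) against the mean rlog value over 8 corneas (log2, horizontal axis) for all 25402 genes tested (grey), with the 26 sterol and fatty acid genes not called in blue and the 11 called lower in red. The red genes lie between -0.70 and -0.34 at means from 8.91 for Acat2 to 13.49 for Hmgcs1, and Acacb stands alone at 1.27.

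The corneas differed in the tissue they held, and in bulk RNA fewer cells of a type and less RNA per cell cannot be told apart. The 7 markers of stromal keratocytes averaged 12.27 in BALB/cN replicate 2, 11.23 and 11.42 in C57BL/6N replicates 3 and 4, and 14.18 to 14.47 in the other 5 corneas. Within strains, the difference between stroma-poor and other corneas over the 11 called genes had a median of -0.01 in BALB/cN, with single genes from -0.17 to 0.08, and a median of 0.03 in C57BL/6N, with single genes from -0.05 to 0.18. With the mean of the stromal list, centred within each strain, as a covariate, limma called 20 of the 37 genes. Of these, 17 were lower and 3 higher (Acacb, Fads1 and Fads2), against 11.8% of all genes called. A covariate centred in this way leaves each strain difference unchanged and alters only its error. It therefore does not adjust the strains for unequal stromal content. Without the 3 stroma-poor corneas, 4 of the 37 were called (Acat2, Hmgcs1, Cyp51 and Elovl6) against 3.35% of all genes, and 30 of 37 differences were still below 0.

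BALB/cN replicates 1 and 4 held transcripts of lens (list means of 6.82 and 6.08, against 4.15 to 4.80 in the other 6 corneas) and of pigment cells (10.95 and 11.91, against 6.61 to 9.21). BALB/cN replicate 1 was the lowest of its strain in 11 of the 11 called genes and in 26 of the 37 tested. BALB/cN replicate 4 was the lowest in 0 of the 11 and in 2 of the 37. Without both corneas 3 of the 37 genes were called by limma, Acat2 (-0.69), Hmgcs1 (-0.44) and Cyp51 (-0.60), against 1.76% of all genes, and the median difference of the 37 genes was -0.23. This comparison had 2 BALB/cN corneas.

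**Figure D4:**
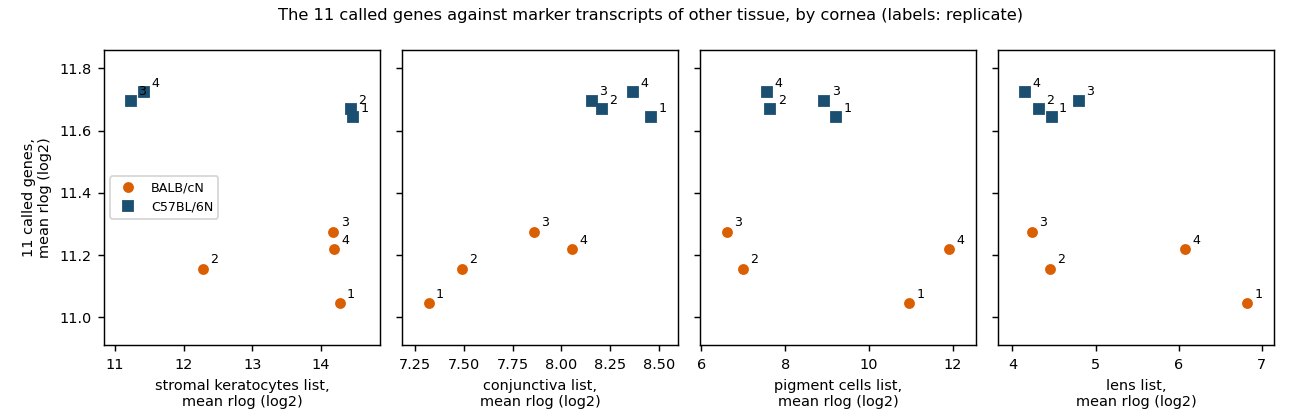
Mean rlog value of the 11 called genes (vertical axis, log2) against the mean rlog value of 4 marker lists (horizontal axes, log2: stromal keratocytes, conjunctiva, pigment cells and lens) in each of the 8 corneas, labelled by replicate. The C57BL/6N corneas stand at 11.64 to 11.72 and the BALB/cN corneas at 11.05 to 11.28. The 11 genes were chosen because they were called lower in BALB/cN, so this gap between strains follows from the choice. It cannot show whether the difference is independent of tissue content. The conjunctiva list is lower in all 4 BALB/cN corneas.

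Conjunctival keratins moved with the strains in the same direction as the sterol genes. The differences were -2.51 for Krt13, -1.17 for Krt4 and -0.97 for Krt19 (limma adjusted p = 6.95e-07, 0.000879 and 0.000338), and the mean of the 4 conjunctiva markers ran from 7.32 to 8.05 in BALB/cN and from 8.16 to 8.46 in C57BL/6N. Muc5ac, the mucin of goblet cells and the fourth marker, was at 6.61 in BALB/cN and 4.43 in C57BL/6N and was not called. The part of conjunctival or limbal epithelium in the sterol differences was not tested. Of the 7 markers of corneal epithelium, Dsg1a was called lower (-0.68) and the list means overlapped, at 16.56 to 16.77 in BALB/cN and 16.70 to 16.91 in C57BL/6N.

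Lipid-rich glands of the lid and fat were looked for as well. The 9 markers of meibomian and sebaceous glands averaged 3.04 to 3.27 in BALB/cN and 2.87 to 3.10 in C57BL/6N. Awat1 and Mc5r were below the limit for testing, Awat2, Far2, Krt79 and Pparg had means under 3 in both strains, and Fa2h was not called (0.30). Cidea and Dgat2, which serve lipid droplets and triglyceride synthesis also outside these glands, were called higher in BALB/cN (0.86 and 0.48), opposite to the 11 called genes. Of 6 adipocyte markers, Adipoq, Cidec and Cfd were at 0 in all corneas, Plin1 and Retn averaged under 0.3, Fabp4 was at 1.06 and 1.07, and the list mean was 0.21 to 0.25 in every cornea.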

How the data were processed

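Strand-specific libraries of total RNA from 4 BALB/cN and 4 C57BL/6N corneas were sequenced in pairs. The authors aligned reads with TopHat2 2.1.1 to a pseudo-genome of each strain made from GRCm38, converted the alignments back, counted them per gene of an Ensembl model with HTSeq 0.7.1, and deposited rlog values from DESeq2 1.30 (tool versions per the submitters' processing notes), which are on a log2 scale and hold no counts. How reads fitting more than 1 gene were counted is not given in the sources used here. The authors' own comparison of the strains was not used, and 0 columns of values were left unused. Since the values are not counts, the strain difference was fitted by limma 3.58.1 in R 4.3.3 (variance trend on), for the 25402 genes whose rlog averaged 0 or more, and p-values were adjusted over all of these by Benjamini-Hochberg. The procedure was tested on simulated data. Exact permutation tests used scipy 1.17.1, and copies were searched with blastn 2.17.0. Genes, exon lengths and positions came from a GRCm38 annotation, and promoter windows from RefSeq (GRCm38.p6).

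The members, gene lists, named genes and tests were chosen with earlier results of these data known. Named are all 38 genes, the called genes of the pathway and marker lists, the gland and fat markers, and near-identical copies. Values in every cornea are given for the called genes, the 10 largest differences and 5 regulators. Nr1h2, Nr1h3, Mbtps1, Mbtps2, Krt12 and Muc5ac were named after their values were seen. The alternatives were other variance, filter, scaling and calibration settings, a looser threshold, a stromal covariate and the replicate number as a block. The covariate was centred within each strain. Each cornea was also left out in turn. Leaving out the 3 stroma-poor corneas, or the 2 with lens and pigment transcripts, was chosen after seeing the data.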

Additional observations from a re-analysis of the deposited data

Results flagged for a closer look

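Among 74 groups of 4 corneas (37 genes in each strain), 3 held a cornea that stood apart from its strain by Dixon's criterion, where chance gives about 3.7. Hmgcs1 was 13.64 in C57BL/6N replicate 1, with the nearest other cornea of the strain at 13.74. Insig2 was 10.09 in C57BL/6N replicate 4, with the nearest at 9.92. Acacb was 6.39 in C57BL/6N replicate 4, with the nearest at 6.95.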

How the results depend on the processing

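Of the 37 genes, 30 had a difference below 0 in the main fit, 33 after median centring and 29 after quantile normalization. Centring moved the difference of every gene by the same amount, and the median over all genes was then -0.07. The other settings that kept all 8 corneas leave the differences of the 37 genes unchanged, so their count of 30 was fixed in advance. The 11 calls became 23 (20 lower and 3 higher) at an adjusted p of 0.05, 0 with an empirical null, 20 (17 lower and 3 higher) with a stromal covariate, 4 without the 3 stroma-poor corneas, 3 without the 2 corneas with lens and pigment transcripts, and 6 to 12 (6 to 11 lower, 0 to 1 higher) with 1 cornea left out. Median centring called 10 genes and kept 7 of the 11, and quantile normalization called 14 and kept all 11, with 1 gene higher in each, Acacb. Without Acat2 the 10 calls became 22, 0, 19, 3, 2 and 5 to 11 under the same settings in that order. All genes called, 1458, became 2842, 0, 3001, 852, 447 and 953 to 1163, and 958 after median centring. The 5 calls of the pathway lists became 13, 0, 13 and 2 at an adjusted p of 0.05, with an empirical null, with a stromal covariate and without the corneas with lens and pigment transcripts, and 8 with a mean of at least log2(10). Why the counts moved was not tested beyond the loss of corneas.

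With the replicate number as a block, 5 of the 37 genes were called, 5 of them lower, 4 without Acat2, 2 of the pathway lists and 554 of all genes. Same-numbered corneas deviated together with correlations of 0.31, -0.53, -0.20 and -0.45, so no consistent pairing by number was seen. The deviations also hold the unequal stromal, lens and pigment content of the corneas. The correlations therefore cannot settle whether the numbers pair the samples.

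Signs changed for genes near 0. Acat1 became -0.0233 with median centring and -0.0012 without the stroma-poor corneas. Nsdhl and Scap became -0.0621 and -0.0669 with centring, and ran from -0.0375 to 0.0719 and from -0.0121 to 0.0219 with 1 cornea left out. Srebf1 became 0.0293 with quantile normalization, 0.0252 without the corneas with lens and pigment transcripts, 0.0681 without the stroma-poor ones, and ran from -0.0492 to 0.0365 with 1 left out. Elovl4 became -0.11 without the corneas with lens and pigment transcripts and ran from -0.0115 to 0.40 with 1 left out.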
